A study of Mus musculus with 9 samples.

Results

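Expression of 10 genes that write, maintain or remove DNA methylation, or that form Polycomb repressive complex 2 (PRC2), was followed across mouse neural cells. The 10 genes, Dnmt1, Dnmt3a, Dnmt3b, Uhrf1, Tet1, Tet2, Tet3, Ezh1, Ezh2 and Suz12, were chosen by name, with earlier results of these data known. All 10 were measured, out of 18193 named genes on the array. They were read by 30 of the 45037 probe sets tested, and the brightest probe set of each gene, by its mean over all arrays, stood for it.

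RNA came from 3 groups of 3 cultures, named replicates A, B and C. yNSCs were neural stem cell-like cells derived in the study from cortical neurons by lentiviral transduction of a reverse tetracycline transactivator and a tetracycline-inducible wild-type YAP, switched on with doxycycline. NSCs were native neural stem cells. Both were kept in DMEM/F12 supplemented with N2, heparin, EGF and bFGF. Neurons were primary cortical cultures in Neurobasal with B27, glutamine, antibiotics and cytosine arabinoside (AraC), which kills dividing cells. The cell kind, the medium and AraC therefore changed together between neurons and the other groups and cannot be told apart. The labels do not say at which passage the arrayed cells were collected, from which strain or how many clones they came, or whether the arrayed yNSCs were still given doxycycline. The paper states that, once the first spheres had been dissociated, yNSCs were as a routine passaged in medium lacking doxycycline.

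DNA methylation at CpG sites is copied onto the new strand after replication by Dnmt1, which Uhrf1 brings to half-methylated DNA, whereas Dnmt3a and Dnmt3b set down new methylation. The Tet enzymes oxidise methylcytosine, the first step of its active removal. PRC2 methylates histone H3 at lysine 27, a mark of repressed developmental genes. Its catalytic subunit is either Ezh2, known from dividing progenitors, or Ezh1, known from resting and differentiated cells, and both need Suz12 and Eed. In the brain, progenitors and neurons are known to use these enzymes differently, with Dnmt3a acting in maturing neurons.

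Each value is a log2 expression summary, so a difference of 1 is a doubling. Values lay between 1.73 and 14.46, array medians between 4.90 and 5.02, and arrays of a group correlated at 0.992 to 0.998. NSC replicate A stood somewhat apart, with 162 of 18193 genes over 2-fold away from the average of its group mates, whereas any other array had 1 to 30 such genes. The 8 neuron markers summed to log2 8.50 to 8.60 in yNSCs, 8.64 to 8.68 in NSCs and 14.73 to 14.78 in neurons, and all 8 were lower in both stem cell groups. The 7 measured neural stem cell markers summed to 14.71 to 14.73 in yNSCs, 14.74 to 14.89 in NSCs and 13.99 to 14.07 in neurons, a sum set mostly by Vim and Fabp7. Set against neurons with limma at an adjusted p under 0.05, 5 of the 7 were higher in yNSCs and 1 was lower, and yNSCs and NSCs did not match throughout, with Hes5 at -3.88 and Prom1 at 1.70 in yNSCs against NSCs. Hes5 was also lower in yNSCs than in neurons (-0.84). The neuron cultures also carried transcripts listed as markers of other cells. Among them were Aqp4 (mean 10.62), Slc1a2 (10.64), Pdgfra (9.61), Dcn (8.18) and microglia and macrophage transcripts. The 8 microglia and macrophage markers summed to 8.91 to 9.16 in yNSCs, 6.69 to 6.81 in NSCs and 12.01 to 12.50 in neurons, and 2 of them in yNSCs, 3 in NSCs and 1 in neurons were below the lower quartile of the arrays. Cd68 (8.42) carried much of the yNSC sum, while C1qa, C1qb and Tyrobp read 4.94, 4.65 and 5.25 there. In yNSCs, 7 of the 8 were lower than in neurons, and 5 were higher and 0 lower than in NSCs. Mural cell and fibroblast markers, 8 in all, summed to 12.31 to 12.73 in yNSCs, 9.57 to 9.98 in NSCs and 8.93 to 9.04 in neurons, and 2 of them in yNSCs, 0 in NSCs and 2 in neurons were below that quartile. Tagln (11.93 in yNSCs) and Acta2 (10.79 in yNSCs) carried this sum. In yNSCs only these 2 of the 8 were higher than in neurons and 5 were lower, with a median of -0.39 and Dcn at -3.11, and against NSCs 3 were higher and 3 lower. Astrocyte markers (7) summed to 13.19 to 13.39 in yNSCs, 12.14 to 12.46 in NSCs and 13.09 to 13.17 in neurons. In yNSCs against NSCs, 5 of the 7 were higher and 0 lower, with a median of 1.15, Gfap at 5.42 and Aqp4 at 4.83. Set against neurons, 3 were higher and 1 lower in yNSCs. In NSCs against neurons, 1 was higher and 4 were lower, with Gfap at -3.81 and Aqp4 at -5.65. The NSC arrays of Aqp4 ranged from 3.40 to 5.90. Oligodendrocyte lineage markers (7) summed to 13.10 to 13.12 in yNSCs, 13.31 to 13.51 in NSCs and 12.15 to 12.18 in neurons, carried by Olig1 and Olig2. Those 2 were higher and 4 of the 7 were lower in yNSCs than in neurons, with a median of -0.63, Pdgfra at -5.57 and Mbp at -2.55. Endothelial markers (6) summed to 6.95 to 7.17 in yNSCs, 6.67 to 6.81 in NSCs and 7.06 to 7.23 in neurons. For Actb, the 3′ control probe set exceeded the 5′ probe set by 0.19 to 0.31 in yNSCs, 0.56 to 0.70 in NSCs and 0.03 to 0.21 in neurons. The part of these other cells and of RNA quality in the results below was not tested. In such bulk RNA, fewer cells of a type and less RNA per cell cannot be told apart.

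Differences were tested with limma across all 9 arrays, and a call required an adjusted p under 0.05 (Benjamini-Hochberg, over the 18193 genes). In yNSCs against neurons, 4 of the 10 genes were higher and 5 lower, against 34.6% and 27.9% of all genes. In NSCs against neurons, 6 were higher and 3 lower, against 33.3% and 34.1% of all genes. In yNSCs against NSCs, 0 were higher and 7 lower, against 21.3% and 18.0% of all genes, and the counts were also 0 and 7 at an unadjusted p under 0.05. The arrays did not overlap between the groups for 9, 8 and 7 of the 10 genes in the 3 comparisons, while this held for 67%, 69.1% and 51.6% of all genes. The median difference of the 10 genes was -0.20, 0.79 and -0.60, beside -0.01, -0.07 and 0.07 over all genes. The comparisons with neurons share the 3 neuron arrays and are given side by side. Since the genes were chosen with earlier results of these data known, the shares of all genes describe and do not test the set.

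**Figure D1:**
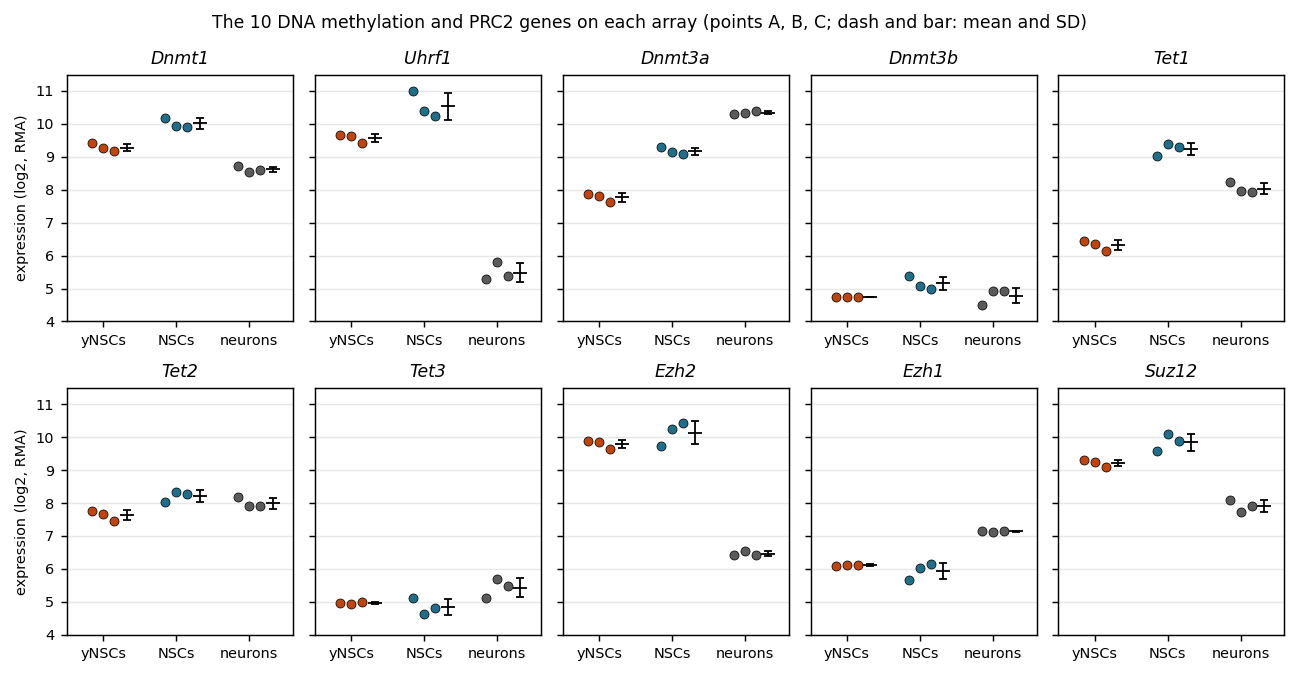
Expression of the 10 genes (y axis, log2 RMA value) in yNSCs, NSCs and neurons (x axis), with 1 point per array and the mean with its SD as a dash and bar. Uhrf1 and Ezh2 show the widest gaps between neurons and the stem cell groups, with all stem cell arrays above 9.4 and all neuron arrays below 6.6.

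The 4 genes higher in yNSCs than in neurons were Dnmt1, Uhrf1, Ezh2 and Suz12. The promoter windows of the 10 genes (RefSeq, GRCm38.p6, 250 bases before to 50 after each listed start) were searched on both strands for the E2F letters TTTGGCGC, TTTCCCGC, TTTCGCGC and TTTGCCGC, since E2F factors are known to drive S phase genes. These same 4 genes held a match and the other 6 did not, and 704 of 27025 genes with a window (2.6%) did, as did 11 of 22 S phase genes. In NSCs against neurons, Tet1 and Dnmt3b were also higher and held no match. Each of the searched E2F letter strings contains a CpG. The matched windows held 31 to 41 CpG sites, against a median of 7 over all windows, so the 2.6% is no share of windows of like CpG content. Windows of the 10 genes without a match held 2 to 57, with 57 in Tet2 and up to 47 in Dnmt3a. The matched sites are printed, each as 30 bases along the strand of the gene with the E2F letters (or their reverse complement) in capitals.

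Uhrf1, chr17:56304117-56304146, plus strand: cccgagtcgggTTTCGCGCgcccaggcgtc
Dnmt1, chr9:20952824-20952853, minus strand: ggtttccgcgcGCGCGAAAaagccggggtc
Dnmt1, chr9:20952574-20952603, minus strand: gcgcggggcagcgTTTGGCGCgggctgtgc
Ezh2, chr6:47595009-47595038, minus strand: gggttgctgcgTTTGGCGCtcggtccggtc
Suz12, chr11:79992876-79992905, plus strand: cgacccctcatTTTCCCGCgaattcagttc

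Counted from the listed start, the first base of the letters lay at -185 in Uhrf1, at -219 and 34 in Dnmt1, at 4 in Ezh2 and at -219 in Suz12. Uhrf1 has 2 listed starts and Dnmt1 has 3, and the matches lay at 1 of them in each gene. The CCAAT box letters, searched the same way, were in 5 of the 10 genes and in 41.1% of all genes. A match describes the letters and is not evidence of binding, and a part of E2F factors in these differences was not tested.

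Among the maintenance genes, Uhrf1, on chr17:56303337-56323486, had the largest difference of the 10 genes from neurons. It read 9.67, 9.62 and 9.43 in yNSCs, 10.99, 10.38 and 10.23 in NSCs, and 5.29, 5.80 and 5.37 in neurons. All stem cell arrays were far above the neuron arrays, and every yNSC array was below every NSC array. The difference was 4.09 in yNSCs against neurons (17.0-fold, SE 0.19, adjusted p = 2.47e-09), 5.05 in NSCs against neurons (33.1-fold, adjusted p = 3.51e-10) and -0.96 in yNSCs against NSCs (adjusted p = 0.00161). The other Uhrf1 probe set was also called higher in both stem cell groups than in neurons, where its mean (3.39) was below the mean lower quartile of the neuron arrays (3.71), so that the sizes of these differences are uncertain. It gave -0.33 between yNSCs and NSCs, with overlapping arrays (adjusted p = 0.161).

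Dnmt1, on chr9:20907206-20959888, moved the same way as Uhrf1 but over a smaller range. It read 9.41, 9.27 and 9.17 in yNSCs, 10.19, 9.93 and 9.92 in NSCs, and 8.71, 8.55 and 8.61 in neurons. The groups did not overlap, and yNSCs lay between the other groups. Dnmt1 was 1.58-fold higher in yNSCs than in neurons (0.66, SE 0.11, adjusted p = 2.39e-04), 2.62-fold higher in NSCs than in neurons (1.39, adjusted p = 3.13e-07), and 1.66-fold lower in yNSCs than in NSCs (-0.73, adjusted p = 2.43e-04). All 3 Dnmt1 probe sets were called in these directions, with differences of 0.66 to 0.92, 1.39 to 1.86 and -0.99 to -0.73. Within arrays, Uhrf1 changed more than Dnmt1 by 3.43 in yNSCs against neurons and by 3.66 in NSCs against neurons. Those arrays did not overlap, and the exact two-sided permutation p was 0.1 for each, the lowest that 3 arrays against 3 allow. In yNSCs against NSCs this unequal change was -0.23, with overlap (exact p = 0.2).

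Of the de novo methyltransferases, Dnmt3a, on chr12:3801559-3914443, went the opposite way. It read 7.87, 7.80 and 7.63 in yNSCs, 9.29, 9.15 and 9.08 in NSCs, and 10.30, 10.32 and 10.39 in neurons. Neurons were highest and yNSCs lowest, and no arrays of different groups overlapped. Dnmt3a was 5.94-fold lower in yNSCs than in neurons (-2.57, SE 0.10, adjusted p = 7.06e-10), 2.24-fold lower in NSCs than in neurons (-1.16, adjusted p = 7.97e-07) and 2.65-fold lower in yNSCs than in NSCs (-1.41, adjusted p = 5.54e-07). The 5 Dnmt3a probe sets were all lower in yNSCs than in neurons, by -2.57 to -0.81. They did not read the other comparisons alike. Probe set 1423065_at did not separate NSCs from neurons (0.03, adjusted p = 0.878), and 1423064_at did not separate yNSCs from NSCs (-0.07, adjusted p = 0.649).

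Dnmt3b, on chr2:153649411-153687730, was dim in every group. It read 4.74, 4.75 and 4.74 in yNSCs, 5.39, 5.08 and 4.99 in NSCs, and 4.51, 4.92 and 4.92 in neurons. The yNSC arrays lay within the range of the neuron arrays, with a difference of -0.04 (95% interval -0.34 to 0.26, adjusted p = 0.819). Dnmt3b was higher in NSCs than in neurons by 0.37 (adjusted p = 0.032) and lower in yNSCs than in NSCs (-0.41, adjusted p = 0.0332). Without NSC replicate A neither call held (0.25, adjusted p = 0.119, and -0.29, adjusted p = 0.116), and further arrays had the same effect, as given among the processing results. The second Dnmt3b probe set gave 0.37 (adjusted p = 0.141), 1.17 (adjusted p = 3.24e-04) and -0.80 (adjusted p = 0.00823).

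Relative to Dnmt3a on the same arrays, Dnmt1 changed by 3.23 in yNSCs against neurons, 2.55 in NSCs against neurons and 0.68 in yNSCs against NSCs. For Dnmt3b relative to Dnmt3a these unequal changes were 2.53, 1.53 and 0.997. Dnmt3b was dim in every group and itself moved by -0.04, 0.37 and -0.41, so these values mostly reflect Dnmt3a. In none of the unequal changes of either pair did arrays of the groups overlap. Each exact two-sided permutation p was 0.1, or 0.112 after Benjamini-Hochberg adjustment over the 18 such tests made. A ratio within arrays shows unequal change of the genes, not their levels relative to each other.

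Of the Tet genes, which encode the oxidising enzymes, Tet1, on chr10:62804570-62887469, separated yNSCs from both other groups. It read 6.45, 6.36 and 6.14 in yNSCs, 9.02, 9.40 and 9.29 in NSCs, and 8.24, 7.95 and 7.92 in neurons. NSCs were highest and yNSCs lowest, without overlap. Tet1 was 3.29-fold lower in yNSCs than in neurons (-1.72, SE 0.14, adjusted p = 2.66e-07), 2.30-fold higher in NSCs than in neurons (1.20, adjusted p = 6.73e-06) and 7.57-fold lower in yNSCs than in NSCs (-2.92, adjusted p = 1.16e-08). The last was the largest difference of any of the 10 genes between the stem cell groups.

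Of the other 3 Tet1 probe sets, 1429448_s_at and 1419896_at were called in the same directions, at -0.90 and -0.75, 2.44 and 1.99, and -3.34 and -2.74 in the 3 comparisons. Probe set 1419897_at was lower in yNSCs than in neurons (-0.70, adjusted p = 8.98e-04) but also lower in NSCs than in neurons (-0.38, adjusted p = 0.0283), and its -0.32 between yNSCs and NSCs did not pass (adjusted p = 0.0946).

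Tet2, on chr3:133463677-133545136, moved little. It read 7.77, 7.68 and 7.47 in yNSCs, 8.02, 8.34 and 8.28 in NSCs, and 8.17, 7.90 and 7.90 in neurons. The yNSC arrays lay below the arrays of both other groups, which overlapped each other. The difference was -0.35 in yNSCs against neurons (adjusted p = 0.0315), 0.22 in NSCs against neurons (95% interval -0.06 to 0.50, adjusted p = 0.142) and -0.57 in yNSCs against NSCs (adjusted p = 0.00343). The first was lost without neuron replicate A (-0.26, adjusted p = 0.115), yNSC replicate B (-0.37, adjusted p = 0.0602) or yNSC replicate C (-0.27, adjusted p = 0.125), and the second passed without NSC replicate A (0.32, adjusted p = 0.0458). The second Tet2 probe set gave -0.03 (adjusted p = 0.855), 0.36 (adjusted p = 0.0246) and -0.39 (adjusted p = 0.0278).

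Tet3, on chr6:83362373-83457208, was read by 1 dim probe set, at 4.95, 4.93 and 5.0 in yNSCs, 5.11, 4.63 and 4.82 in NSCs, and 5.11, 5.68 and 5.49 in neurons. Neurons were highest, although their lowest array equalled the highest NSC array. Tet3 was lower in yNSCs than in neurons (-0.47, adjusted p = 0.0200) and in NSCs than in neurons (-0.57, adjusted p = 0.00600), and yNSCs against NSCs gave 0.11 (95% interval -0.23 to 0.45, adjusted p = 0.640). The call in yNSCs was lost without neuron replicate B (-0.34, adjusted p = 0.0870), neuron replicate C (-0.44, adjusted p = 0.0587), yNSC replicate A (-0.46, adjusted p = 0.0527) or yNSC replicate B (-0.45, adjusted p = 0.0574). Relative to Tet3, Tet1 changed by -1.25 in yNSCs against neurons, 1.77 in NSCs against neurons and -3.03 in yNSCs against NSCs, each without overlap of the arrays (exact p = 0.1).

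**Figure D2:**
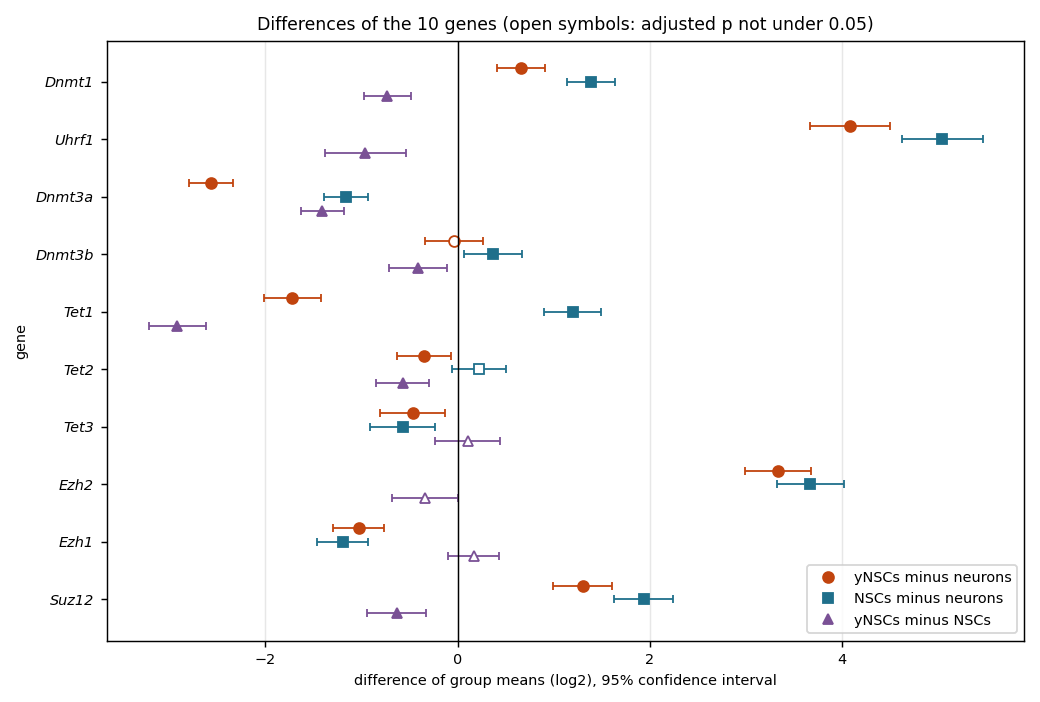
Differences of group means for the 10 genes (x axis, log2) with their 95% confidence intervals, for yNSCs minus neurons, NSCs minus neurons and yNSCs minus NSCs, with open symbols where the adjusted p was not under 0.05. Tet1 is lower in yNSCs and higher in NSCs than in neurons (-1.72 and 1.20), and no gene is called higher in yNSCs than in NSCs.

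Within PRC2, the alternative catalytic subunits moved in opposite directions. Ezh2, on chr6:47530274-47595270, read 9.89, 9.85 and 9.65 in yNSCs, 9.74, 10.24 and 10.43 in NSCs, and 6.43, 6.55 and 6.41 in neurons. All 6 stem cell arrays were more than 3 log2 units above the highest neuron array, and the yNSC and NSC arrays overlapped. Ezh2 was 10.1-fold higher in yNSCs (3.33, SE 0.16, adjusted p = 2.63e-09) and 12.8-fold higher in NSCs (3.67, adjusted p = 9.94e-10) than in neurons. Between yNSCs and NSCs the difference was -0.34 (95% interval -0.68 to 0.00, adjusted p = 0.113). Without NSC replicate A, the lowest NSC array, it was -0.54 and was called lower in yNSCs (adjusted p = 0.00358).

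Ezh1, on chr11:101191115-101226463, read 6.09, 6.13 and 6.12 in yNSCs, 5.67, 6.03 and 6.14 in NSCs, and 7.14, 7.13 and 7.16 in neurons. The neuron arrays were above all others, and yNSCs and NSCs overlapped. Ezh1 was 2.04-fold lower in yNSCs (-1.03, SE 0.12, adjusted p = 9.75e-06) and 2.29-fold lower in NSCs (-1.20, adjusted p = 2.36e-06) than in neurons. Between yNSCs and NSCs it differed by 0.17 (95% interval -0.10 to 0.43, adjusted p = 0.317), while another of its 4 probe sets was called higher in yNSCs (0.53, adjusted p = 0.00289), the only member probe set that was. The probe sets 1429630_at and 1429629_at had means below the mean lower quartile of the arrays in every group, so that neither their calls nor the lack of a call of 1429630_at in yNSCs against neurons bears on Ezh1.

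Relative to Ezh1 on the same arrays, Ezh2 changed by 4.36 in yNSCs against neurons, 4.87 in NSCs against neurons and -0.51 in yNSCs against NSCs. Arrays did not overlap in any of these, and the exact permutation p was 0.1 for each.

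Suz12, on chr11:79993106-80034123, the scaffold subunit of the complex, read 9.30, 9.24 and 9.11 in yNSCs, 9.58, 10.09 and 9.88 in NSCs, and 8.09, 7.73 and 7.92 in neurons. The groups did not overlap, with yNSCs between the others. Suz12 was 2.47-fold higher in yNSCs than in neurons (1.30, SE 0.14, adjusted p = 4.77e-06), 3.83-fold higher in NSCs than in neurons (1.94, adjusted p = 1.19e-07) and 1.55-fold lower in yNSCs than in NSCs (-0.63, adjusted p = 0.00337). Of its 6 probe sets, 5 were higher in both stem cell groups than in neurons, and 1420020_at was lower in both (-0.42, adjusted p = 0.0406, and -0.42, adjusted p = 0.0364). Only 3 of the 6 were lower in yNSCs than in NSCs, and the other 3 differed by 0.00 to 0.15. Ezh2 changed more than Suz12 by 2.03 in yNSCs against neurons and by 1.74 in NSCs against neurons (exact p = 0.1 for each), while yNSCs against NSCs gave 0.29 with overlap (exact p = 0.2).

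Over all 30 probe sets, adjusted over 45037, yNSCs against neurons had 11 higher and 15 lower, against 28.1% and 28.1% of all probe sets. NSCs against neurons had 17 higher and 11 lower, against 30.5% and 32.8%. In yNSCs against NSCs, 1 was higher and 18 were lower, against 18.1% and 18.9%. Probe sets of a gene read different stretches of its transcripts and are not replicates.

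**Figure D3:**
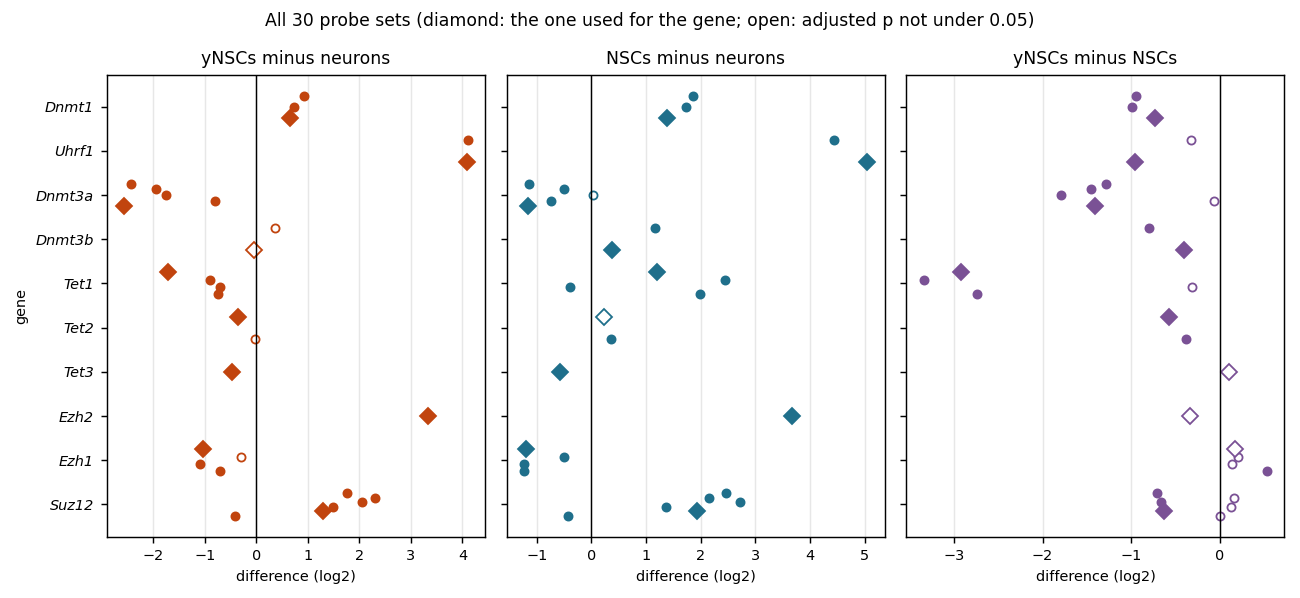
Differences (x axis, log2) of each of the 30 probe sets by gene, in 3 panels for yNSCs minus neurons, NSCs minus neurons and yNSCs minus NSCs, with diamonds for the probe set that stood for the gene and open symbols where the adjusted p was not under 0.05. The Tet1 probe sets split in NSCs minus neurons (2.44 to -0.38), and 1 Suz12 probe set lies on the other side of 0 from the other 5 against neurons.

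The 25 measured genes of S phase and DNA replication, which dividing cells use to copy their DNA, gave a scale for these differences. In yNSCs against neurons, 24 were higher and 1, Orc1, was lower (-0.92, adjusted p = 1.66e-04), with a median of 2.89. In NSCs against neurons, 24 were higher and 1 lower, with a median of 3.38, and 0 were lower without replicate B or C of either the neurons or the NSCs. The change of Uhrf1 exceeded that of 22 and of 25 of the 25 genes in these comparisons, and the change of Ezh2 that of 13 and 14. Dnmt1 exceeded 1 and 2 of them, and Suz12 2 and 2. In yNSCs against NSCs, 12 S phase genes were lower and 1 higher, with a median of -0.38, among them the polymerase gene Pold1 (-1.79, adjusted p = 1.17e-05). The 12 became 6 without yNSC replicate C, and the 1 became 2 without neuron replicate B.

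Patterns most like those of the 7 members whose group means span at least 1 log2 unit were found by the root mean square difference over the 9 arrays, after each gene's mean was subtracted. For Uhrf1 the nearest genes were Rrm2, Pbk and Melk (0.189 to 0.196), and for Ezh2 they were Kif23, Rad51ap1 and Smc2 (0.159 to 0.174). Dnmt1 was nearest to Tmem263, Smad4 and Srrm1 (0.051 to 0.069), and Suz12 to Smurf2, Echdc1 and Zbtb21 (0.103 to 0.124). Dnmt3a was nearest to Ank2, Sirpa and Elmo1 (0.129 to 0.143), Ezh1 to Emx1, Stx7 and Tmem106b (0.063 to 0.074), and Tet1 to Grip1, Prrg3 and Rab33a (0.141 to 0.262). Prrg3, for example, differed by -1.85 in yNSCs against neurons, by 1.33 in NSCs against neurons and by -3.18 in yNSCs against NSCs.

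Counts in this and the lists below stand beside the shares of all genes called. Those were 34.6% higher and 27.9% lower in yNSCs against neurons, and 33.3% and 34.1% in NSCs against neurons. In yNSCs against NSCs they were 21.3% and 18.0%. Of the 9 measured other PRC2 subunits, 4 were higher and 1 lower in yNSCs against neurons (2 lower without neuron replicate B and 4 after quantile normalization again). Eed, the core subunit that reads the H3K27 mark, was at 9.68, 9.68 and 9.65 in yNSCs, 9.72, 9.65 and 9.71 in NSCs, and 7.62, 7.33 and 7.42 in neurons. It was higher by 2.21 in yNSCs (adjusted p = 2.04e-09) and by 2.24 in NSCs (adjusted p = 1.65e-09) than in neurons, and yNSCs and NSCs overlapped. The accessory subunit Aebp2 was higher than in neurons by 1.23 in yNSCs (adjusted p = 2.40e-06) and by 1.15 in NSCs (adjusted p = 4.35e-06). In NSCs against neurons, 6 were higher and 2, Phf1 and Phf19, were lower (1 without neuron replicate B or NSC replicate B).

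Jarid2, an accessory subunit that helps PRC2 bind chromatin, separated yNSCs from both other groups, as Tet1 did. It read 6.99, 6.70 and 6.85 in yNSCs, 9.29, 9.19 and 9.18 in NSCs, and 8.64, 8.75 and 8.65 in neurons. The yNSC arrays were the lowest and the NSC arrays the highest, without overlap. Its difference was -1.83 in yNSCs against neurons (adjusted p = 1.30e-08) and -2.37 in yNSCs against NSCs (adjusted p = 7.26e-09). Mtf2, a Polycomb-like subunit, was also lower in yNSCs than in NSCs (-0.81, adjusted p = 1.86e-04), the only other of the 9 that was. None was higher, although 1 was without NSC replicate B or neuron replicate B or C and under either other scaling.

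Of the 17 measured subunits of PRC1, the complex that ubiquitinates histone H2A, 6 were higher and 5 lower in yNSCs against neurons. These counts are near the shares of all genes (34.6% and 27.9%). In NSCs against neurons 10 were higher and 4 lower (6 higher after quantile normalization again), and in yNSCs against NSCs 5 and 6. Bmi1, which neural stem cells need to renew, read 10.20, 10.12 and 9.84 in yNSCs, 10.18, 10.13 and 10.11 in NSCs, and 8.78, 8.54 and 8.18 in neurons. It was higher by 1.55 in yNSCs (adjusted p = 1.63e-06) and by 1.64 in NSCs (adjusted p = 9.22e-07). Pcgf5, of the same family, was higher by 2.31 in yNSCs than in neurons (adjusted p = 1.61e-08) and by 0.76 in yNSCs than in NSCs (adjusted p = 6.87e-04).

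A further pair of PRC1 genes was lowest in yNSCs. Kdm2b, whose product binds unmethylated CpG islands, was lower in yNSCs than in neurons (-0.79, adjusted p = 7.21e-04) and than in NSCs (-1.41, adjusted p = 1.67e-05), and Phc1 gave -0.76 (adjusted p = 8.03e-04) and -1.36 (adjusted p = 1.77e-05). The chromodomain genes Cbx6 and Cbx7 were instead lowest in NSCs, with a lower level there than in neurons (-1.16, adjusted p = 9.26e-07, and -1.12, adjusted p = 1.37e-06).

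Genes that oppose PRC2, the H3K27 demethylases and MLL methyltransferases (6 measured), were higher in 2 cases and lower in 1 in yNSCs against neurons, and higher in 5 and lower in 0 in NSCs against neurons. After quantile normalization again the higher counts were 1 and 3. In yNSCs against NSCs, 0 were higher and 5 lower. Kdm6b, an H3K27 demethylase, read 8.20, 8.15 and 8.36 in yNSCs, 9.47, 9.16 and 9.02 in NSCs, and 7.84, 7.63 and 7.91 in neurons. The groups did not overlap, and Kdm6b was higher in yNSCs than in neurons (0.44, adjusted p = 0.0112) and lower in yNSCs than in NSCs (-0.98, adjusted p = 8.44e-05). The methyltransferase gene Kmt2c was lower in yNSCs than in neurons (-0.84, adjusted p = 9.97e-05) and than in NSCs (-1.34, adjusted p = 5.21e-06).

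Of 8 measured genes listed as methyl-CpG binding proteins, 4 were higher and 1, Zbtb4, was lower in yNSCs against neurons. The 1 became 0 without yNSC replicate B or C. In NSCs against neurons 6 were higher and 2 lower, the 2 becoming 1 without NSC replicate A or neuron replicate A or B. Mbd2 read 8.85, 8.81 and 8.95 in yNSCs, 8.0, 8.23 and 8.34 in NSCs, and 7.48, 7.24 and 7.11 in neurons, with no overlap. It was higher in yNSCs by 1.59 than in neurons (adjusted p = 2.52e-07) and by 0.68 than in NSCs (adjusted p = 9.03e-04). Mbd3 was higher in NSCs than in neurons (1.35, adjusted p = 2.67e-06) and lower in yNSCs than in NSCs (-0.68, adjusted p = 0.00191). In yNSCs against NSCs, 2 of the 8 were higher and 2 lower (1 lower without NSC or yNSC replicate C).

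Partners of the DNA methyltransferases (11 measured) were led by Cdca7, which activates the remodeller Hells needed for normal methylation. Cdca7 read 8.51, 8.51 and 8.53 in yNSCs, 9.11, 8.84 and 8.61 in NSCs, and 5.38, 6.04 and 5.26 in neurons. The stem cell arrays lay far above the neuron arrays, with differences of 2.96 in yNSCs (adjusted p = 3.49e-08) and 3.29 in NSCs (adjusted p = 1.22e-08). Pcna, the replication clamp that binds Dnmt1, was higher than in neurons by 1.70 in yNSCs (adjusted p = 1.57e-08) and by 1.44 in NSCs (adjusted p = 6.49e-08). In all, 3 were higher and 2 lower in yNSCs against neurons, 5 and 3 in NSCs against neurons, and 0 and 2 in yNSCs against NSCs. The counts in yNSCs against neurons are not above the shares of all genes (34.6% and 27.9%). The first count of lower genes became 1 after subtraction of array medians and without neuron replicate C or any 1 yNSC array. The second became 0 without neuron replicate B or C and 1 without NSC replicate B or C or yNSC replicate A or B. In yNSCs against NSCs, 1 was higher without neuron replicate B, NSC replicate A or yNSC replicate B.

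Genes that work downstream of or beside the Tet enzymes, demethylation partners and base excision repair, included changes of over 4 log2 units in yNSCs against neurons. Of 10 measured, 8 were higher and 2 lower in yNSCs against neurons, 7 and 2 in NSCs against neurons, and 2 and 7 in yNSCs against NSCs. Gadd45a, a stress gene linked to demethylation, read 9.07, 9.45 and 9.70 in yNSCs, 7.68, 8.05 and 8.06 in NSCs, and 4.31, 4.19 and 4.58 in neurons. The groups did not overlap, and it was higher in yNSCs by 5.05 than in neurons (adjusted p = 1.45e-10) and by 1.48 than in NSCs (adjusted p = 2.36e-05). Gadd45b was higher in yNSCs by 3.22 than in neurons (adjusted p = 5.55e-06) and by 2.46 than in NSCs (adjusted p = 1.44e-04), with the yNSC arrays spread from 7.61 to 9.35.

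Cxxc4, whose product binds CpG-rich DNA and Tet2, read 5.55, 5.43 and 5.22 in yNSCs, 6.02, 6.58 and 6.57 in NSCs, and 9.60, 9.45 and 9.32 in neurons. It was lower in yNSCs (-4.06, adjusted p = 4.78e-10) and in NSCs (-3.07, adjusted p = 4.96e-09) than in neurons, without overlap. Ogt, the sugar transferase that pairs with Tet proteins, was lower in yNSCs (-1.12, adjusted p = 1.95e-06) and in NSCs (-0.63, adjusted p = 2.76e-04) than in neurons.

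Of 16 measured genes known as Polycomb targets in many cells, 2 were higher and 7 lower in yNSCs against neurons, 3 and 7 in NSCs against neurons, and 2 and 2 in yNSCs against NSCs (1 higher without NSC replicate A or B or yNSC replicate C, and 4 higher after subtraction of the array medians). The cell cycle inhibitor Cdkn2a read 5.43, 5.35 and 5.62 in yNSCs, 6.18, 7.16 and 7.31 in NSCs, and 3.0, 3.35 and 2.61 in neurons, where its mean was below the lower quartile of the arrays. It was higher in yNSCs than in neurons (2.48, a size made uncertain by the dim neuron values, adjusted p = 3.86e-06) and lower in yNSCs than in NSCs (-1.42, adjusted p = 9.44e-04). Cdkn2b was higher in yNSCs (3.77, adjusted p = 1.97e-09) and in NSCs (3.09, adjusted p = 1.00e-08) than in neurons. The genes that were lower included Hoxc10 (-1.10 in yNSCs, adjusted p = 1.34e-05, and -1.27 in NSCs, adjusted p = 3.62e-06), whose means in yNSCs and NSCs were below that quartile, so that the size of its difference is uncertain.

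**Figure D4:**
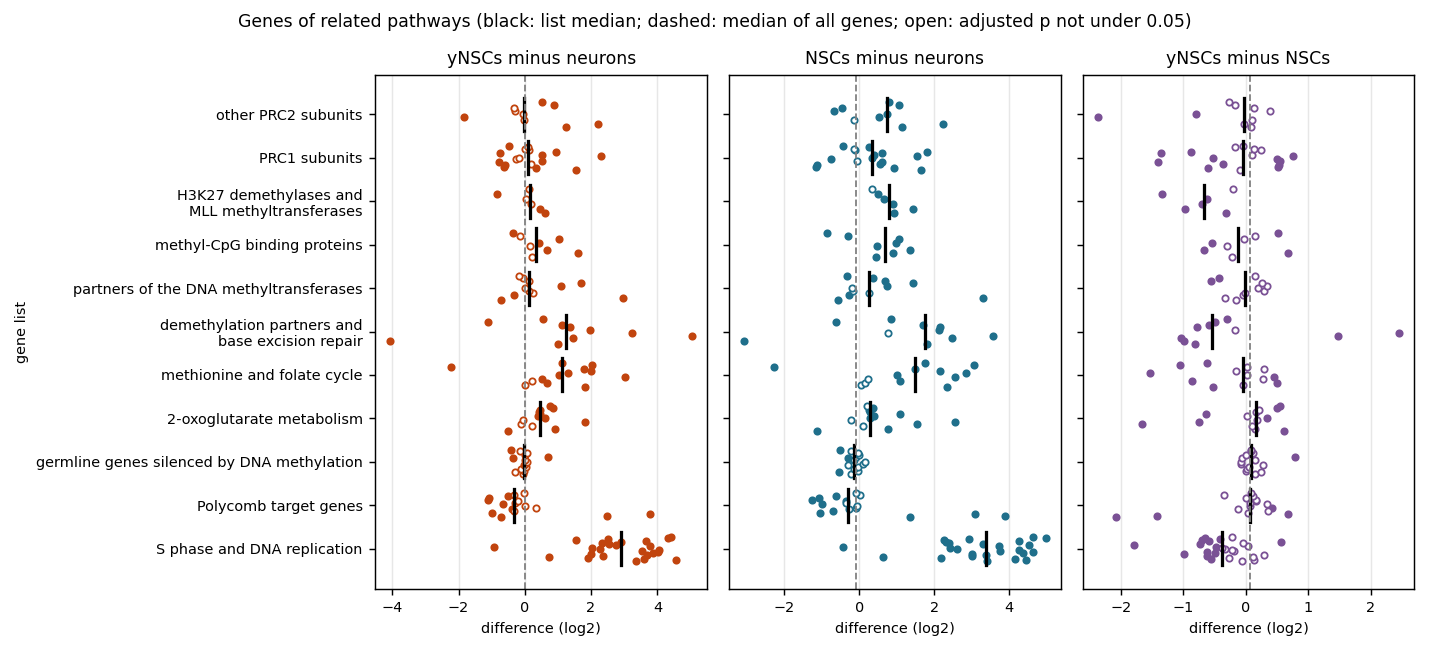
Differences (x axis, log2) of single genes in 11 lists of related pathways, in 3 panels for yNSCs minus neurons, NSCs minus neurons and yNSCs minus NSCs, with black bars for list medians, a dashed line for the median of all genes and open symbols where the adjusted p was not under 0.05. S phase genes lie farthest to the right against neurons (medians 2.89 and 3.38), and PRC1 subunits and methyl-CpG binding proteins spread to both sides of 0.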

How the data were processed

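Per the labels, total RNA was extracted with Trizol and hybridised as biotinylated cRNA to Affymetrix Mouse430_2 arrays. The deposited values are log2 summaries that the authors made with RMA, 1 per probe set, and its version is not given in the sources used here. They were used as deposited. Of 45101 probe sets, 64 controls were left out, 932 with several symbols and 9160 not named here entered no gene comparison, and 34741 of 34945 with 1 symbol were matched to RefSeq (GRCm38.p6). Array data allow no depth, and 3 arrays per group limit the precision.

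Group means were fitted to all 9 arrays with limma 3.58.1 (R 4.3.3, 6 residual and 5.59 prior degrees of freedom), two-sided, with Benjamini-Hochberg adjustment over 18193 genes or 45037 probe sets. Differences subtract the second group from the first, with moderated SE. Near background means below the mean lower quartile of a group (3.49 in yNSCs, 3.43 in NSCs and 3.71 in neurons). Named list genes are the called genes with the 2 largest and 2 lowest differences per comparison without overlap of the arrays, of which the text takes a part. Fits were tested on simulated data. The genes and lists were chosen with earlier results of these data known, and list genes rest on 1 probe set each. Replicates are called biological in the labels. If they were not independent cultures, p-values measure technical spread. Alternatives included a replicate block, a fit to the 6 compared arrays alone, quantile normalization again, subtraction of array medians, a variance trend with a robust prior, the mean of all probe sets, omission of the dimmest 40% of genes, a 2-fold minimum, and leaving out each array. Alternatives for lists were chosen after seeing the data. The E2F letters, CCAAT and their shares were counted in RefSeq promoter windows.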

Additional observations from a re-analysis of the deposited data

How the results depend on the processing

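Of 474 recomputed differences of the 10 genes, 444 kept their direction and their side of the threshold, 20 kept the direction but lost the call, 3 gained it and 7 changed sign, all 7 in differences that were not called. Dnmt3b in yNSCs against neurons became 0.0843 after quantile normalization again, 0.05 after subtraction of array medians and 0.17 as an average over its probe sets, and ranged from -0.177 to 0.0283 when an array was left out. Tet2 in NSCs against neurons became -0.12 after quantile normalization again, and Tet3 in yNSCs against NSCs ranged from -0.005 to 0.235 when an array was left out. The lost calls were those of Dnmt3b, Tet2 and Tet3. Tet2 in yNSCs against neurons was also lost with array medians subtracted (-0.26, adjusted p = 0.113) and when its probe sets were averaged (-0.19, adjusted p = 0.122). Dnmt3b in NSCs against neurons was lost with only the 6 arrays compared (adjusted p = 0.0655) and without neuron replicate A (0.23, adjusted p = 0.131), and in yNSCs against NSCs after quantile normalization again (-0.35, adjusted p = 0.0633) and without NSC replicate A or B or any 1 yNSC array (adjusted p = 0.0539 to 0.116). Tet2 in NSCs against neurons was gained with its probe sets averaged (0.29, adjusted p = 0.0236).

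Deviations of arrays with the same letter correlated at -0.11 to 0.10 over genes, within the -0.18 to 0.14 of arrays with different letters. With so few arrays per group, these values cannot decide whether the letters pair the arrays, and pairing remains unknown. With the replicate block, 6228 and 4987 genes were called in yNSCs against neurons, and the calls of Dnmt3b were lost in NSCs against neurons (0.37, adjusted p = 0.0535) and in yNSCs against NSCs (-0.41, adjusted p = 0.0583). It changed no other call of the 10 genes.

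Without the 40% of genes with the lowest mean, 2901 genes were lower in yNSCs against neurons and 3093 in NSCs against neurons. In yNSCs against neurons, lower calls fell from 5081 to 2901 and higher calls only from 6294 to 5696. The omission of dim genes thus removed more lower than higher calls there. With a 2-fold minimum, 3335 genes were higher and 1989 lower in yNSCs against neurons, 3386 and 2284 in NSCs against neurons, and 1101 and 1086 in yNSCs against NSCs. It left 3 of the 10 genes lower in yNSCs against neurons and 2 in yNSCs against NSCs, beside 10.9% and 5.97% of all genes. Dnmt1, at 0.66, was no longer called higher in yNSCs against neurons. Member probe sets numbered 7, 5 and 7 lower in the 3 comparisons and 0 higher in yNSCs against NSCs. The share of all probe sets at this minimum is not given here, so these counts cannot be read against it. The number of the 10 genes lower in yNSCs against neurons ranged from 3 to 5 when an array was left out, the 3 without yNSC replicate B. Subtraction of array medians moved the median difference of all genes in yNSCs against neurons to 0.08, against -0.01. Among the lists, this subtraction also left 0 methyl-CpG binding proteins lower in yNSCs against neurons and 1 in NSCs against neurons, 0 methyltransferase partners lower in NSCs against neurons, 1 partner higher in yNSCs against NSCs and 1 germline gene lower in yNSCs against neurons. Quantile normalization again left 2 methyl-CpG binding proteins lower in yNSCs against neurons and 3 partners higher in NSCs against neurons, and the replicate block left 1 Polycomb target higher in yNSCs against NSCs. The probe sets that stood for the 10 genes had means above the lower quartile of the arrays in every group.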

Other observations

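A pair of further lists held genes linked to the substrates of these enzymes, and the substrates themselves were not measured. Of 13 measured genes of the methionine and folate cycle, which makes the methyl donor, 10 were higher and 1 lower in yNSCs against neurons, 9 and 1 in NSCs against neurons, and 2 and 5 in yNSCs against NSCs. Mtap, which salvages methionine, was higher in yNSCs than in neurons by 3.01 (limma, adjusted p = 4.97e-10), and mitochondrial Shmt2 by 2.02 in yNSCs (adjusted p = 2.54e-08) and 3.07 in NSCs (adjusted p = 5.90e-10). Cytosolic Shmt1 was lower in yNSCs (-2.24, adjusted p = 1.82e-06) and in NSCs (-2.26, adjusted p = 1.54e-06). Mthfd2 was lower in yNSCs than in NSCs (-1.54, adjusted p = 1.42e-05).

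Of 13 measured genes of 2-oxoglutarate metabolism, the cosubstrate of the Tet enzymes and of the H3K27 demethylases, 9 were higher and 1 lower in yNSCs against neurons, 9 and 1 in NSCs against neurons, and 4 and 3 in yNSCs against NSCs. After quantile normalization again, 2 were lower in each comparison with neurons and 5 were higher in NSCs, and 5 were also higher in NSCs without NSC replicate B. Idh2 was higher by 1.81 in yNSCs (adjusted p = 6.26e-09) and 2.56 in NSCs (adjusted p = 2.86e-10) than in neurons, and Idh1 was lower in yNSCs than in NSCs (-1.66, adjusted p = 9.81e-07). D2hgdh, which clears 2-hydroxyglutarate, was lower in yNSCs (-0.52, adjusted p = 8.35e-04) and in NSCs (-1.14, adjusted p = 1.04e-06) than in neurons.

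Germline genes that DNA methylation is known to silence in body cells stayed dim. Of 15 measured, 11 were near background in both groups of each comparison, 1 was higher and 2 lower in yNSCs against neurons, 0 and 3 in NSCs against neurons, and 1 and 0 in yNSCs against NSCs. After quantile normalization again 0 were lower in either comparison with neurons, and 1 was higher in NSCs. Sycp3 was higher in yNSCs than in neurons (0.70, adjusted p = 4.65e-04) and than in NSCs (0.79, adjusted p = 3.85e-04), with its mean below the lower quartile of the arrays in every group, so that the sizes are uncertain.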
